A study of Mus musculus with 20 samples.

Results

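Bone morphogenetic protein (BMP) signalling was described through 9 genes of the mouse uterus on the evening of day 3.5 of pregnancy: the ligands Bmp2, Bmp4 and Bmp7, the receptors Bmpr1a, Bmpr1b and Bmpr2, the antagonists Grem1 and Nog, and the target gene Id1. They were chosen by symbol, with earlier results of these data known. All were found among the 45777 genes of the expression table, and 8 of the 9 were above 0 in all 20 libraries. Grem1 was listed at 0 in 4 libraries. In the GRCm38.p6 annotation of RefSeq the ligand genes span chr2:133552159-133562896 (Bmp2), chr14:46383525-46390669 (Bmp4) and chr2:172868012-172940321 (Bmp7), and the receptor genes chr14:34411061-34503336 (Bmpr1a), chr3:141837135-142169585 (Bmpr1b) and chr1:59764279-59878081 (Bmpr2). Grem1 spans chr2:113748675-113758648, Nog chr11:89300638-89302559 and Id1 chr2:152736251-152737410.

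B6D2F1 females of wild-type genotype, 8 to 12 weeks old, were mated, and the plug morning was day 0.5. Each of the 20 libraries was made from the polyadenylated RNA of 1 uterine horn of 1 mouse, taken at 18:00 on day 3.5, and 5 mice formed each group. Control mice were given no treatment. The IF group, a model of implantation failure, was given RU486, an antagonist of the progesterone and glucocorticoid receptors, at 3 mg/kg under the skin on the morning of day 3.5. The PBMC and PBMC-hCG groups were given the same RU486 after 50000 peripheral blood mononuclear cells of non-pregnant mice had been placed in each horn on day 1.5. Those cells had been cultured for 24 h, for the PBMC-hCG group with human chorionic gonadotropin (hCG) at 5 IU/mL and for the PBMC group without it. None of the 20 libraries came from the study's medium group, whose injection held culture medium with hCG and no cells. The injection and the cells therefore cannot be told apart here. The whole horn was sampled, and in such bulk tissue fewer cells of a type and less RNA per cell cannot be told apart either.

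BMP ligands are secreted dimers of the TGF-beta superfamily that bring type I and type II receptor kinases together on the cell surface. The activated type I receptor phosphorylates the receptor-regulated Smads, which join Smad4, enter the nucleus and turn on targets such as the Id genes. Secreted antagonists, among them Noggin (Nog) and Gremlin 1 (Grem1), bind the ligands and keep them from the receptors. In the mouse uterus, Bmp2 is known for its place in decidualization, the change of stromal cells that follows embryo attachment.

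The 250 bases before the annotated start of Bmp4 and of the 3 receptor genes are shown because these are the members with a RefSeq promoter entry (GRCm38.p6) that passed the test against control in at least 1 comparison below. Each is printed 5′ to 3′ on the strand of its gene, with 2 motifs in capitals where they occur. These are the GC-rich Smad-binding letters GGCGCC and the TGTTCT core of the progesterone and glucocorticoid response element.
Bmp4 (chr14:46390670-46390919, minus strand): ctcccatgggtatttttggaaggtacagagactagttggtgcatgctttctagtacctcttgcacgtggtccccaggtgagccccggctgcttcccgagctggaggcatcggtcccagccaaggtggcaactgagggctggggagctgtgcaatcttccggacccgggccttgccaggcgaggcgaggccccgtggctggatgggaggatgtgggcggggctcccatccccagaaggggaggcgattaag
Bmpr1a (chr14:34502547-34502796, minus strand): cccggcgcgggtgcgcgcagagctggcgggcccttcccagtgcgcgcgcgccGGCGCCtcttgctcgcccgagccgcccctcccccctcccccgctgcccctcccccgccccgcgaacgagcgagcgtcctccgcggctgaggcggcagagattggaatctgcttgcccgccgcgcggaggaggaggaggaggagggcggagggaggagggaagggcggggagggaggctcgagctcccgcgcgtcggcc
Bmpr1b (chr3:141982265-141982514, minus strand): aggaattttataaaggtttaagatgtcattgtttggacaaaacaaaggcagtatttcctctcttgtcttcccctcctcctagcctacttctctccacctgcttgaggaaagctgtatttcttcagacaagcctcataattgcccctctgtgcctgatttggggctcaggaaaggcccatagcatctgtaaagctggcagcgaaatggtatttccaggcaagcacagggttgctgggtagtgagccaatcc
Bmpr2 (chr1:59764029-59764278, plus strand): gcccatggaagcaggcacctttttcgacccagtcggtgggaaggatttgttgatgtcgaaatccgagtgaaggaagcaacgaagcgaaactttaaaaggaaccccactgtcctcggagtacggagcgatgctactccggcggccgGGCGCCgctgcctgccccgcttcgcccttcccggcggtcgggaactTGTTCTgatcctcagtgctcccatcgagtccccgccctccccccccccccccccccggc

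GGCGCC began 198 bases before the Bmpr1a start and 105 bases before the Bmpr2 start. It reads the same on both strands and was present in 9.59% of all 32851 RefSeq windows of this length. TGTTCT, searched on both strands, began 59 bases before the Bmpr2 start and was found in 16.1% of windows. The GGTCA core of the estrogen response element, searched on both strands, was in none of these 4 windows and in 35.2% of all windows. It was present in the windows of both other Bmpr1b starts, 105 and 74 bases upstream, and in 3 of all 7 member windows. GC content was 63.2% in the Bmp4 window, 78.8% in that of Bmpr1a, 46.8% in that of Bmpr1b and 64.0% in that of Bmpr2, against a median of 52.4% over all windows. The Bmpr1a and Bmpr1b windows lie inside the annotated span of their genes, and Bmpr1b has 3 starts in the collection, of which the most upstream is shown. These matches are descriptions of letters and not of binding.

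Expression is given as TPM, a transcript abundance relative to the library total, a level scaled per transcript length. Per length, the control uterus held most Id1 (97.3 ± 31.9 TPM, mean ± SD, n = 5) and Bmpr1a (41.4 ± 4.31), followed by Bmp7 (23.7 ± 6.32), Bmpr2 (18.5 ± 1.85), Nog (17.8 ± 15.5), Bmp4 (14.2 ± 5.09) and Bmp2 (6.04 ± 4.44). Bmpr1b (1.21 ± 0.725) and Grem1 (0 to 0.434) were low. Among the receptors, Bmpr1a and Bmpr2 were thus present at levels well above Bmpr1b in the control group, and they stayed so in every library. Differences between groups were tested with limma on log2(TPM + 0.1), adjusted over the 18706 genes above 0 in all libraries, and called at an adjusted p under 0.05.

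**Figure D1:**
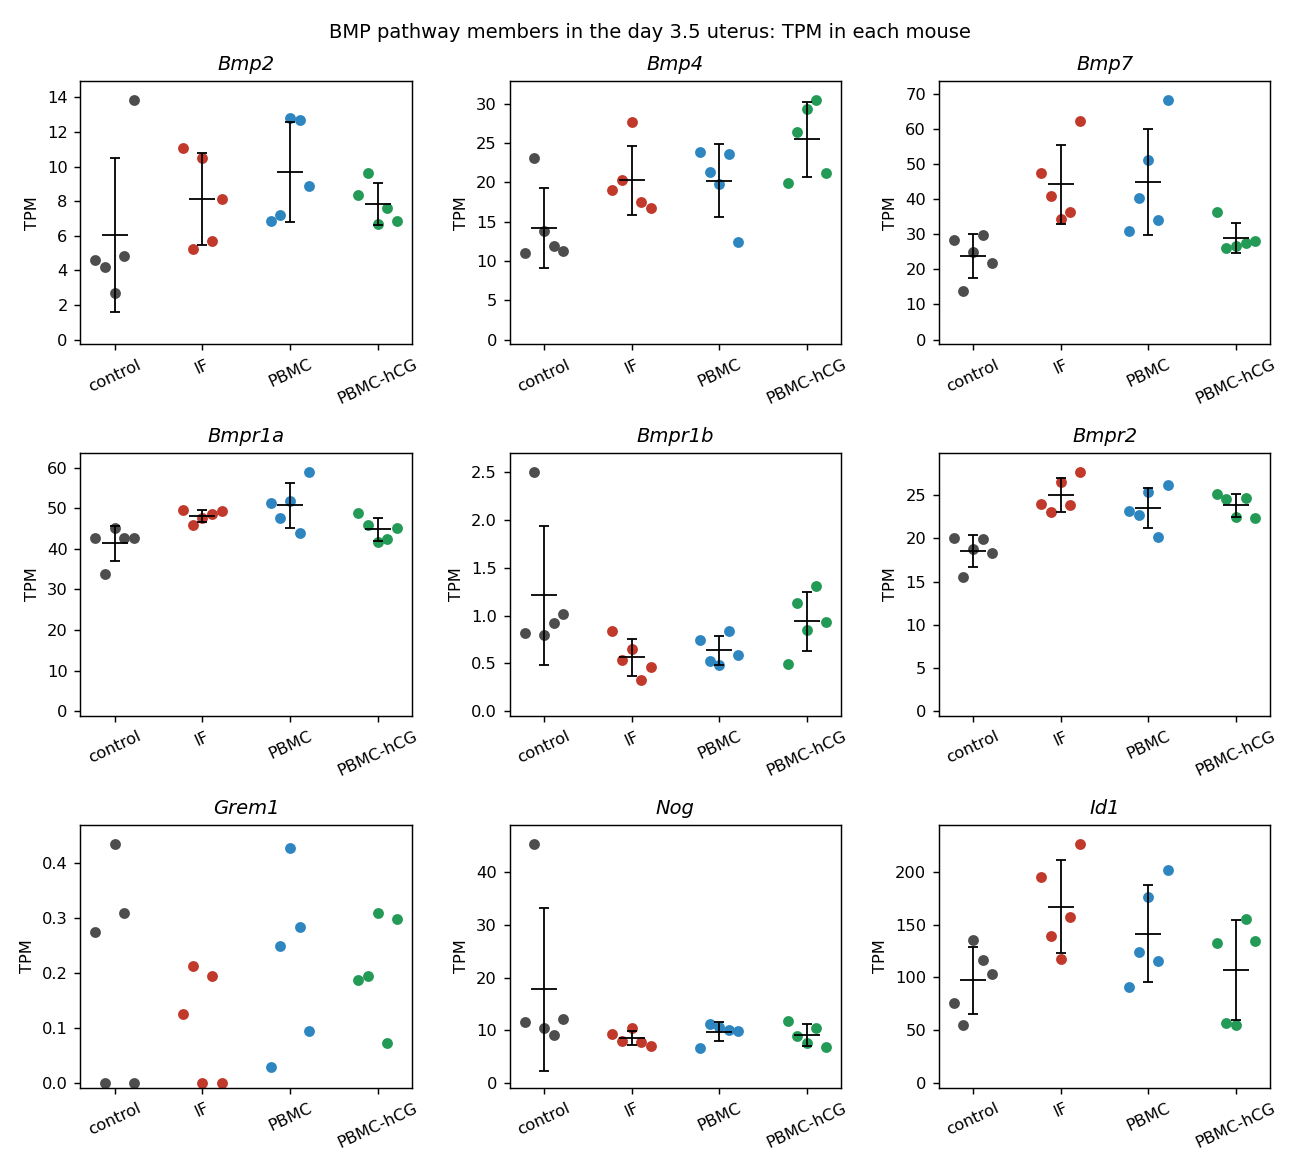
TPM of the 9 genes (vertical axes, linear, each with its own scale) in each of the 20 mice, by group. Points are mice, horizontal bars are means and whiskers SD (n = 5; none is drawn for Grem1, which is listed at 0 in 4 libraries). The IF and PBMC points of Bmp7 all lie above the control points, and control replicate 2 stands apart from the other controls in Bmp4, Bmpr1b and Nog.

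After RU486 alone, 4 of the 8 tested members passed the test against control. The ligand Bmp7 and the receptors Bmpr1a and Bmpr2 rose, and Bmpr1b fell. Of all tested genes 21.9% passed in this comparison, 13.4% higher and 8.53% lower (2509 and 1595 genes; 2161 higher of 4254 after quantile normalization and 2132 higher of 4186 after a shift to a common median). The median log2 fold change was 0.49 over the 8 tested members and 0.02 over all tested genes. On the log2(TPM + 0.1) scale none of the 4 reached a fold change of 2, and so 0 members met the study's own criteria of a fold of at least 2 with a raw p under 0.05, which 4.03% of tested genes met. For Bmpr1b this turned on the added 0.1 TPM, since with 0.01 TPM added instead it was just over 2-fold lower and met both criteria. Of the 8 tested members, 7 had a raw p under 0.05, against 33.9% of tested genes. The study's criteria called 0 members in the other comparisons too, where they were met by 3.34% of tested genes in PBMC and 4.74% in PBMC-hCG against control, 0.438% in PBMC and 2.31% in PBMC-hCG against IF, and 0.893% in PBMC-hCG against PBMC.

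Bmp7 encodes a secreted BMP ligand. Its level in the 5 control mice was 28.3, 13.8, 25.02, 29.6 and 21.8 TPM, in replicate order. In the IF mice it was 47.5, 40.8, 34.3, 36.2 and 62.1 TPM. The lowest IF mouse was above the highest control mouse, a separation in this direction that 8.55% of tested genes showed. The fold was 1.88 (log2 fold change 0.91 ± 0.22 SE, limma adjusted p = 0.00609), and the two-sided exact permutation test gave the smallest p possible with 5 against 5, 0.00794. With PBMC the levels were 31.1, 40.4, 51.2, 34.1 and 68.2 TPM, again all above control (log2 fold change 0.91 ± 0.22, limma adjusted p = 0.00666, where 19.5% of tested genes passed, 12.8% higher, and 8.65% lay wholly above control). With PBMC-hCG they were 36.3, 26.1, 26.5, 27.4 and 28.2 TPM. Of these 5 mice, 4 lay within the control range and below every IF and PBMC mouse, and replicate 1 lay inside the IF and PBMC ranges.

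The lower Bmp7 level in the PBMC-hCG group did not pass the transcriptome-wide test. Against IF the log2 fold change was -0.59 ± 0.22 (95% interval -1.05 to -0.13, limma adjusted p = 0.0735), with 13.6% of all tested genes called and 35% under a raw p of 0.05. Against PBMC it was also -0.59 ± 0.22 (limma adjusted p = 0.283; 0.0107% called). The two-sided exact permutation test of Bmp7 alone gave p = 0.0238 in each of these comparisons, and 0.0357 after Benjamini-Hochberg adjustment over the gene's 6 comparisons. The call against IF was made when IF replicate 3 (log2 fold change -0.67, limma adjusted p = 0.0417) or PBMC-hCG replicate 1 (-0.67, limma adjusted p = 0.0465) was left out, and when only these groups entered the fit (limma adjusted p = 0.0428). Of the 10 fits with 1 library left out, only these 2 made the call. Over the 10, the log2 fold change ran from -0.67 to -0.46 and the limma adjusted p from 0.0417 to 0.219. Against control, PBMC-hCG differed by 0.32 (95% interval -0.14 to 0.78, limma adjusted p = 0.284), so a remaining rise of up to that bound is within the error. In order of their means the groups were PBMC (45.0 ± 15.1 TPM), IF (44.2 ± 11.2), PBMC-hCG (28.9 ± 4.22) and control (23.7 ± 6.32). PBMC and IF did not differ beyond their spread, and neither did PBMC-hCG and control.

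Bmp4, a ligand close to Bmp2 in sequence, was at 11.0, 23.1, 13.8, 11.9 and 11.3 TPM in control mice. It was at 19.04, 20.2, 27.7, 17.5 and 16.7 TPM in IF mice and at 23.9, 21.3, 19.8, 23.6 and 12.5 TPM in PBMC mice. The PBMC-hCG mice had 19.95, 26.4, 29.4, 30.5 and 21.2 TPM. Control replicate 2 lay within the range of the other groups, and the other 4 controls were below every IF and PBMC-hCG mouse. Bmp4 rose in the PBMC-hCG group against control, 1.83-fold (log2 fold change 0.88 ± 0.21, limma adjusted p = 0.00402), in a comparison in which 31.8% of tested genes passed and 20.2% passed as higher. The two-sided exact permutation test there gave p = 0.0238, and 0.143 after Benjamini-Hochberg adjustment over the gene's 6 comparisons. Bmp4 did not pass by limma against control in the IF group (0.54 ± 0.21, limma adjusted p = 0.0719) or the PBMC group (0.52 ± 0.21, limma adjusted p = 0.0881). Without control replicate 2 both passed, at 0.73 (limma adjusted p = 0.0063) and 0.71 (limma adjusted p = 0.00823), and the PBMC comparison also passed without PBMC replicate 5 (0.69, limma adjusted p = 0.019). PBMC-hCG (25.5 ± 4.74 TPM) stood highest, above IF (20.2 ± 4.39), PBMC (20.2 ± 4.65) and control (14.2 ± 5.09). No neighbours in this order passed the test, and PBMC-hCG against IF was 0.33 (95% interval -0.10 to 0.77, limma adjusted p = 0.261).

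Bmp2, the ligand named above for decidualization, was at 4.58, 4.21, 2.71, 4.84 and 13.8 TPM in the control mice. In IF mice it was at 11.1, 5.26, 10.5, 5.70 and 8.12 TPM, in PBMC mice at 6.88, 7.22, 12.8, 12.7 and 8.88 TPM, and in PBMC-hCG mice at 8.38, 9.61, 6.68, 7.59 and 6.84 TPM. Control replicate 5 was the highest of all 20 mice, and the other 4 controls were the lowest 4. No comparison of Bmp2 passed the test: log2 fold changes against control were 0.59 ± 0.32 in IF (limma adjusted p = 0.211), 0.86 ± 0.32 in PBMC (0.0713) and 0.59 ± 0.32 in PBMC-hCG (0.177). All 3 passed without control replicate 5, at 0.94 (limma adjusted p = 0.0114), 1.21 (0.00243) and 0.94 (0.00975). The order of the means was PBMC (9.70 ± 2.88 TPM), IF (8.13 ± 2.66), PBMC-hCG (7.82 ± 1.21) and control (6.04 ± 4.44), with no neighbours passing the test.

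Among the receptor members, Bmpr2, a type II receptor, gave the most stable difference. Control mice had 20.1, 15.5, 18.7, 19.96 and 18.4 TPM and IF mice 23.97, 23.01, 26.5, 23.8 and 27.7 TPM. PBMC mice had 23.2, 22.8, 25.3, 20.2 and 26.2 TPM and PBMC-hCG mice 25.1, 24.6, 22.5, 24.7 and 22.3 TPM. All 15 mice given RU486 were above all 5 controls. Bmpr2 rose 1.35-fold in IF (log2 fold change 0.43 ± 0.08, limma adjusted p = 0.00086), 1.27-fold in PBMC (0.34 ± 0.08, limma adjusted p = 0.0056) and 1.29-fold in PBMC-hCG (0.37 ± 0.08, limma adjusted p = 0.00241), and each call was kept when any 1 library was left out. Two-sided exact permutation tests gave p = 0.00794 in each, and 0.0159 after Benjamini-Hochberg adjustment over the gene's 6 comparisons. In the PBMC-hCG against control comparison, 13.2% of tested genes lay wholly above control. The 3 groups given RU486 did not differ from each other beyond their spread (25 ± 1.99 TPM in IF, 23.9 ± 1.30 in PBMC-hCG and 23.5 ± 2.35 in PBMC).

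Bmpr1a, the type I receptor among the members that is the more abundant per length, was at 42.5, 33.9, 45.1, 42.6 and 42.6 TPM in control mice. IF mice had 49.6, 46.0, 47.5, 48.5 and 49.3 TPM and PBMC mice 51.2, 47.5, 51.8, 43.9 and 58.9 TPM. PBMC-hCG mice had 48.7, 45.9, 41.7, 42.4 and 45.1 TPM. The IF mice were all above the controls, whereas the PBMC and PBMC-hCG mice overlapped with them. The rise in IF was small, 1.17-fold (log2 fold change 0.23 ± 0.08, limma adjusted p = 0.0437), and was lost on leaving out any library except control replicate 3 (limma adjusted p of 0.0353 to 0.0957 over the 10 fits). Without control replicate 2, the lowest control, it was 0.16 (limma adjusted p = 0.0957). In the PBMC group Bmpr1a rose 1.22-fold (0.29 ± 0.08, limma adjusted p = 0.012). Two-sided exact permutation tests against control gave p = 0.0476 in IF and 0.0477 in PBMC after Benjamini-Hochberg adjustment over the gene's 6 comparisons. PBMC-hCG did not pass against control (0.12 ± 0.08, limma adjusted p = 0.259) or against PBMC (-0.17 ± 0.08, limma adjusted p = 0.295). The means ran from PBMC (50.6 ± 5.59 TPM) and IF (48.2 ± 1.47) to PBMC-hCG (44.8 ± 2.82) and control (41.4 ± 4.31), with no neighbours passing the test.

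Bmpr1b, the other type I receptor among the members, was low throughout. Control mice had 0.819, 2.50, 0.801, 0.923 and 1.01 TPM and IF mice 0.837, 0.537, 0.653, 0.332 and 0.462 TPM. PBMC mice had 0.741, 0.527, 0.486, 0.840 and 0.593 TPM and PBMC-hCG mice 0.495, 1.13, 0.848, 1.31 and 0.932 TPM. Apart from IF replicate 1, all IF mice were below all controls, and 4 of the 5 PBMC-hCG mice were above all IF mice. Bmpr1b fell in IF (log2 fold change -0.90 ± 0.29, limma adjusted p = 0.0309), a call lost without IF replicate 2, 4 or 5 (limma adjusted p = 0.0537, 0.0826 and 0.0676) or control replicate 2 (-0.62, limma adjusted p = 0.0654). The two-sided exact permutation test of IF against control gave p = 0.0238, and 0.0714 after Benjamini-Hochberg adjustment over the gene's 6 comparisons. Bmpr1b did not pass by limma in PBMC against control (-0.72 ± 0.29, limma adjusted p = 0.0878) or in PBMC-hCG against IF (0.64 ± 0.29, 95% interval 0.04 to 1.24, limma adjusted p = 0.122). The latter passed without PBMC-hCG replicate 1 (0.83, limma adjusted p = 0.0446). Means were 1.21 ± 0.725 TPM in control, 0.942 ± 0.307 in PBMC-hCG, 0.637 ± 0.149 in PBMC and 0.564 ± 0.192 in IF, and no neighbours in this order passed the test. At such levels the added 0.1 TPM makes fold changes smaller than those of the TPM themselves.

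**Figure D2:**
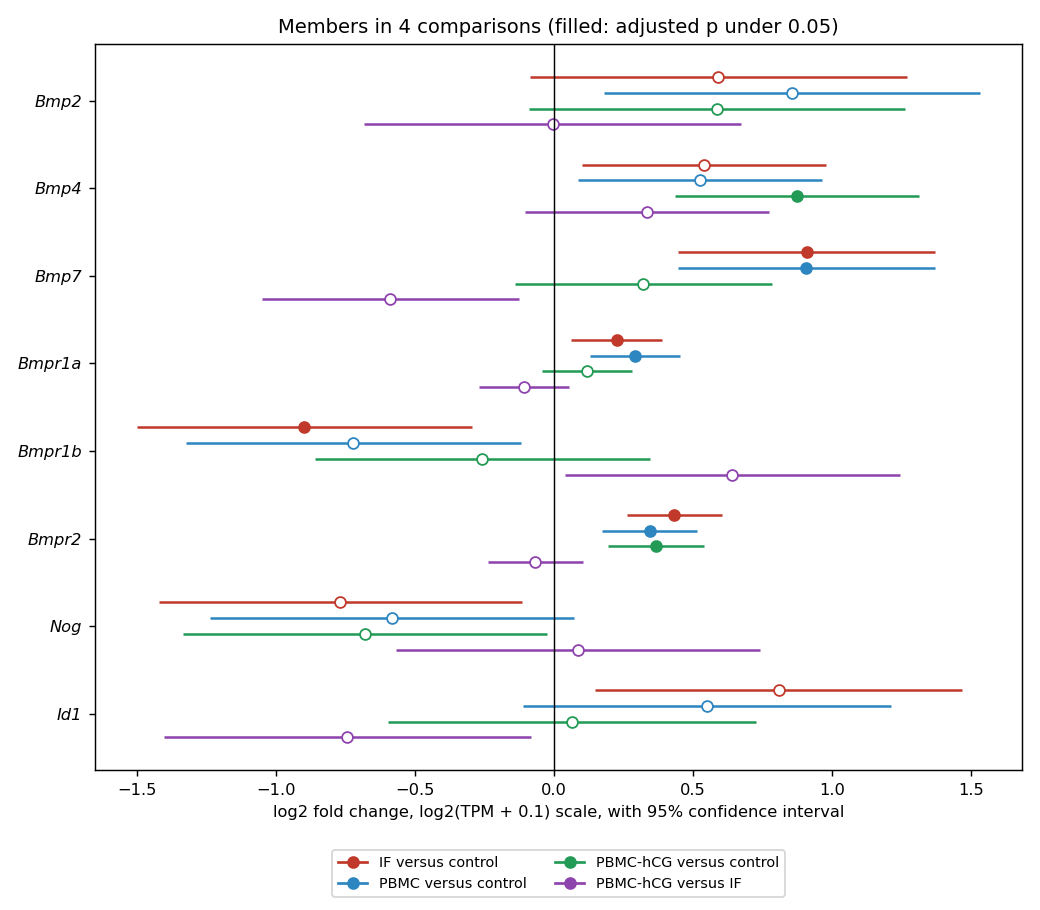
Log2 fold changes of the 8 tested members (horizontal axis, log2(TPM + 0.1) scale, with 95% confidence intervals) in 4 comparisons, each with 5 mice per group. Filled points have a limma adjusted p under 0.05. Bmpr2 is filled against control in all 3 groups given RU486, Bmp7 in IF and PBMC, and Bmp4 in PBMC-hCG, while no point of PBMC-hCG against IF is filled.

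The antagonists gave no call. Nog was at 11.7, 45.4, 10.5, 9.09 and 12.2 TPM in control mice and at 9.24, 7.94, 10.4, 7.78 and 7.09 TPM in IF mice. PBMC mice had 6.67, 11.3, 10.7, 10.1 and 9.90 TPM and PBMC-hCG mice 11.9, 9.02, 7.55, 10.5 and 6.79 TPM. Control replicate 2 was far above every other mouse, and the other 4 controls overlapped with every group. Nog in IF was at -0.77 ± 0.31 against control (limma adjusted p = 0.0871), and at -0.30 (limma adjusted p = 0.28) without control replicates 2 and 5, a setting chosen after seeing the data. Means were 17.8 ± 15.5 TPM in control, 9.74 ± 1.80 in PBMC, 9.14 ± 2.08 in PBMC-hCG and 8.49 ± 1.33 in IF. The control mean was 10.9 ± 1.37 TPM (n = 4) without replicate 2, and no neighbours passed the test.

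Grem1 was listed at 0.274, 0, 0.434, 0.308 and 0 TPM in control, at 0.126, 0.213, 0, 0.194 and 0 in IF, at 0.0286, 0.248, 0.426, 0.284 and 0.0952 in PBMC and at 0.187, 0.194, 0.310, 0.0723 and 0.297 in PBMC-hCG. All 4 groups overlapped. Two-sided exact permutation tests of the 6 comparisons gave p = 0.183 to 0.833, and 0.738 to 0.833 after Benjamini-Hochberg adjustment over the 6.

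Id1, a dominant-negative helix-loop-helix protein and a textbook target of BMP receptors, was at 75.9, 55.3, 135, 117 and 104 TPM in control mice. IF mice had 195, 139, 117, 157 and 226 TPM and PBMC mice 90.7, 124, 176, 115 and 201 TPM. PBMC-hCG mice split into replicates 2 and 3 at 56.8 and 54.9 TPM and replicates 1, 4 and 5 at 132, 156 and 134 TPM. IF replicate 3 alone lay inside the control range. Id1 did not pass in any comparison: IF against control was 0.81 ± 0.32 (95% interval 0.15 to 1.47, limma adjusted p = 0.0747) and PBMC-hCG against IF was -0.74 ± 0.32 (95% interval -1.40 to -0.08, limma adjusted p = 0.105). The means were 167 ± 43.8 TPM in IF, 141 ± 45.5 in PBMC, 107 ± 47.4 in PBMC-hCG and 97.3 ± 31.9 in control, with no neighbours passing the test.

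No member passed the test between PBMC and IF, by limma adjusted p or by a raw p under 0.05. The same comparison called 0 of all 18706 genes (0%), and 6.79% had a raw p under 0.05. Confidence intervals were widest for Bmp2 (-0.41 to 0.94) and Id1 (-0.92 to 0.40) and narrowest for Bmpr1a (-0.10 to 0.23) and Bmpr2 (-0.26 to 0.08). Differences between PBMC and IF inside those bounds are within the error. PBMC-hCG against PBMC gave 0 member calls as well, with Bmp7 and Bmpr1a under a raw p of 0.05 against 16.2% of tested genes. The comparisons with control share its 5 libraries and those with IF share the IF libraries, so their results are not independent. Over all genes, the split of calls moved with scaling in the other comparisons too: 2400 of 3653 calls were higher in PBMC against control (1991 of 3718 after quantile normalization and 1862 of 3524 after the median shift), 3772 of 5941 in PBMC-hCG against control (3208 of 6008 and 2830 of 5779), and 1423 of 2544 in PBMC-hCG against IF (1188 of 2657 after the median shift).

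Around the 9 genes, 50 other genes of the pathway were examined, of which 43 were tested. Bmp8a, Bmp10, Gdf2, Hjv, Sost, Sostdc1 and Cer1 were listed at 0 in at least 1 library and were not. In IF against control, 17 rose and 4 fell (21 of 43, 48.8%, against 21.9% of all tested genes), with a median log2 fold change of 0.18. The list was chosen with earlier results of these data known, so its share beside that of all genes is a description and not a test. Among the other ligands 3 of 8 rose (Bmp3, Gdf5 and Gdf6) and none fell. Receptors and co-receptors rose in 3 of 8 (Acvr1, a type I receptor, Eng and Rgma). All 8 Smads and ubiquitin ligases passed, 7 of them higher, including the receptor-regulated Smad1 and Smad5, the common Smad4, the inhibitory Smad6 and Smad7 and the ligases Smurf1 and Smurf2, and Smad9 lower. Of 10 tested genes listed as antagonists, Twsg1 was higher and Chrd, Bmper and Fst were lower. Targets rose in 3 of 9 (Id3, Hey1 and Atoh8). The other 6 were not called and none of them had a positive log2 fold change. The median over the 9 targets was -0.04.

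Bmp3, a ligand that opposes other BMPs in bone, rose from 0.912 ± 0.130 to 3.09 ± 0.809 TPM in IF (1.63 ± 0.17, limma adjusted p = 2.56e-06). Gdf6, a ligand of the growth and differentiation factor branch, was at 0.0556 to 0.144 TPM in control and 0.295 to 0.781 TPM in IF (1.43 ± 0.24, limma adjusted p = 0.000279). At these low levels its log2 fold change depended on the pseudocount, from 0.41 with 1 TPM added to 1.99 with 0.01 TPM. Bmp3 and Gdf6 stayed higher than control in the PBMC group (1.48 and 1.30) and the PBMC-hCG group (1.43 and 1.36), all with limma adjusted p at or below 0.000729. Gdf5, a ligand of the same branch as Gdf6, was at 1.28 to 2.73 TPM in control and 3.40 to 6.74 TPM in IF, without overlap (1.14 ± 0.26, limma adjusted p = 0.00362). It also rose in PBMC (0.93, limma adjusted p = 0.0148), where replicate 5 at 1.92 TPM lay within the control range, and in PBMC-hCG (0.86, limma adjusted p = 0.0165), where no mouse did. Of all tested genes 8.55% in IF and 13.2% in PBMC-hCG lay wholly above control.

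Chrd, Bmper and Fst, which were listed as antagonists, fell against control in each of the 3 groups given RU486. Chrd (chordin) went from 17.5 to 23.7 TPM in control to 11.1 to 14.6 TPM in IF (-0.59 ± 0.09, limma adjusted p = 0.000104), where 8.53% of tested genes passed as lower. Against control it was at -0.68 in PBMC and -0.58 in PBMC-hCG. Bmper, which binds BMPs outside the cell, was at 3.37 to 13.5 TPM in control and 1.67 to 3.70 TPM in IF (-1.32 ± 0.30, limma adjusted p = 0.00344), and at -1.41 in PBMC and -1.54 in PBMC-hCG. Fst (follistatin), which binds activins and some BMPs, was at 82.6, 40.0, 65.6, 61.8 and 81.1 TPM in control mice and at 28.8, 22.2, 21.98, 11.6 and 46.0 TPM in IF mice (-1.43 ± 0.38, limma adjusted p = 0.0101). PBMC mice had 11.6, 16.6, 36.8, 20.5 and 49.6 TPM (-1.44 against control). PBMC-hCG mice had 13.2, 10.7, 10.7, 6.19 and 6.35 TPM (-2.82 against control, a comparison in which 31.8% of tested genes passed).

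**Figure D3:**
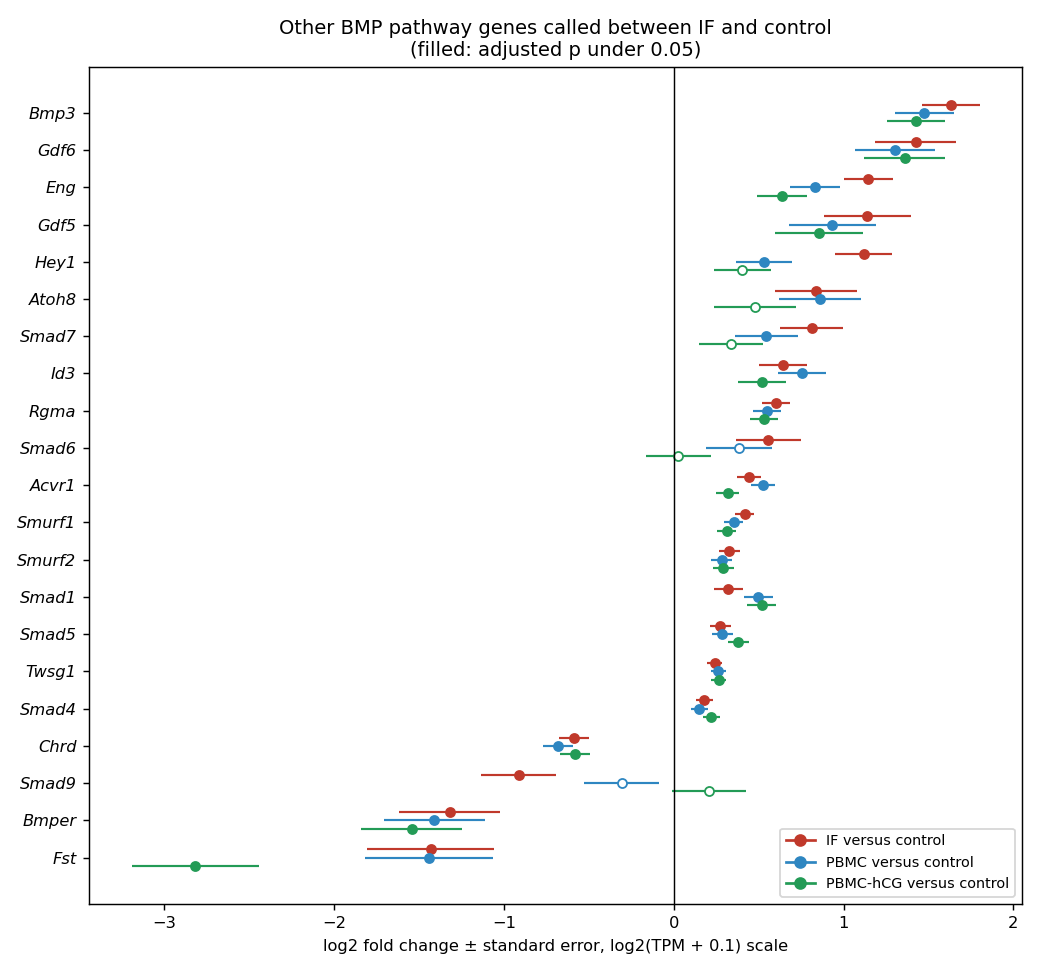
Log2 fold change against control ± standard error (horizontal axis, log2(TPM + 0.1) scale) of the 21 other pathway genes called between IF and control, in the 3 groups given RU486 (n = 5 each). Filled points have a limma adjusted p under 0.05, and the 3 groups share the control libraries. Bmp3, Gdf5 and Gdf6 are filled and to the right of 0 in all 3 groups, Fst is lowest in PBMC-hCG, and the Smad9 points of PBMC and PBMC-hCG are open.

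Between PBMC-hCG and IF, 4 of the 43 pathway genes passed (9.3%, against 13.6% of all tested genes). Smad9, a receptor-regulated Smad, was at 1.05, 0.505, 0.845, 0.477 and 0.370 TPM in IF mice and 1.21, 1.80, 1.29, 1.48 and 1.48 TPM in PBMC-hCG mice, with no overlap, as in 5.05% of tested genes in this direction (1.12 ± 0.22, limma adjusted p = 0.0258). Its control values were 1.05 to 1.42 TPM. Eng (endoglin), a co-receptor abundant in endothelium, had 194, 235, 187, 238 and 302 TPM in IF and 225, 143, 149, 148 and 149 TPM in PBMC-hCG, where only replicate 1 reached the IF range (-0.51 ± 0.15, limma adjusted p = 0.0371). Hey1, a transcription factor downstream of Notch and BMP signals, had 19.5 to 29.5 TPM in IF and 11.8 to 21.8 TPM in PBMC-hCG (-0.71 ± 0.17, limma adjusted p = 0.0287). Fst fell further, by 1.38 on the log2 scale (± 0.38, limma adjusted p = 0.0324). Whether these calls were made depended on the setting, while the log2 fold changes ran from 0.58 to 1.30 for Smad9, -0.63 to -0.41 for Eng, -1.64 to -1.15 for Fst and -0.85 to -0.63 for Hey1. Over the settings run, Eng was called in 11 of 20, Fst in 12, Smad9 in 13 and Hey1 in 14, and leaving out 1 library moved the pathway count from 4 to between 0 and 13 and the count over all genes from 2544 to between 0 and 5061. No pathway gene passed between PBMC and IF or between PBMC-hCG and PBMC, where 4 and 5 had a raw p under 0.05.

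Against control, 20 pathway genes passed in PBMC (17 higher, 3 lower, 46.5%, against 19.5% of all tested genes) and 19 in PBMC-hCG (14 higher, 5 lower, 44.2%, against 31.8%). These shares too are descriptions of a list chosen with earlier results known. In the PBMC-hCG group the receptors and co-receptors Acvr1, Acvr2a, Eng and Rgma rose. Of the genes listed as antagonists, Chrdl1 and Fstl3 fell beside Chrd, Bmper and Fst. Smad6, Smad7, Hey1 and Atoh8 did not pass in PBMC-hCG against control.

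The members also varied together among mice of 1 group. After subtraction of group means, over 20 libraries, Bmpr1a correlated with Bmpr2 (Pearson r = 0.78) and Bmp7 with Bmpr2 (0.77), Bmpr1a (0.75) and Id1 (0.69). Bmp4 went the other way, with r = -0.83 against Bmp7 and -0.80 against Bmpr1a, and 0.68 with Bmpr1b. Over all 20 libraries without that subtraction Bmp4 and Bmp7 had r = -0.15. The first principal component of the within-group variation of all tested genes, 27.7% of it, correlated with Bmp4 (r = -0.93), Bmp7 (0.81), Bmpr1b (-0.78) and Bmpr1a (0.77) and hardly with Bmp2 (0.06), and 21% of all tested genes had a correlation with it beyond 0.75 in size. These values are descriptions over libraries that share their group's treatment, and no test was made of them.

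**Figure D4:**
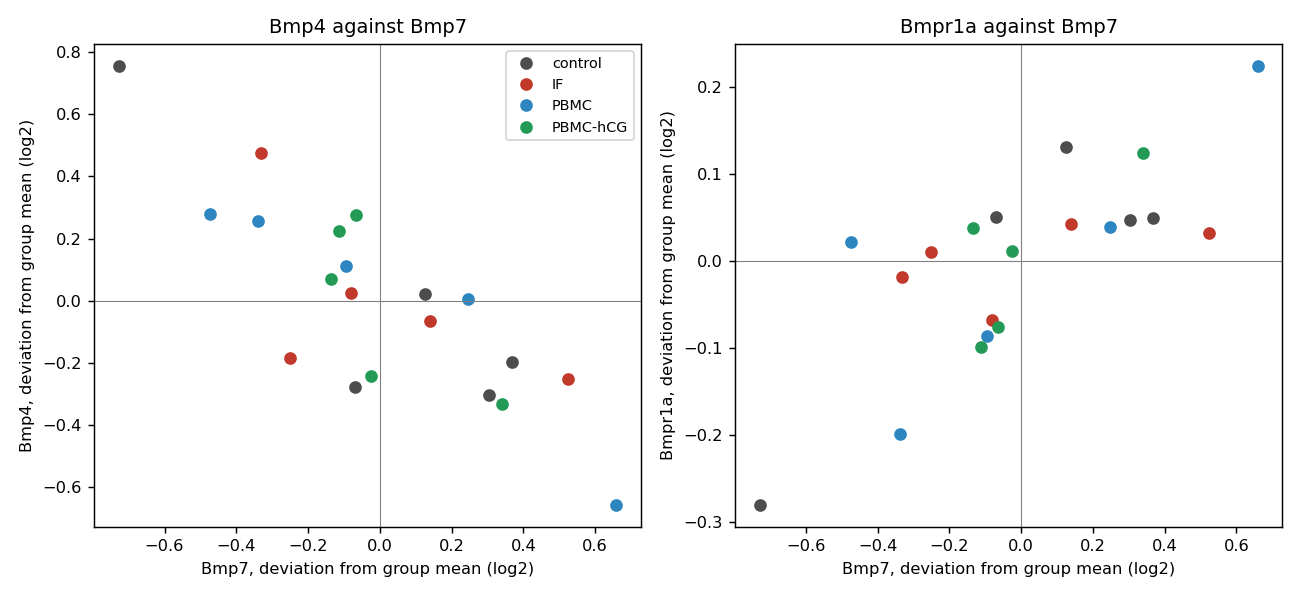
Deviation of each mouse from its group mean, in log2(TPM + 0.1), for Bmp4 (left) and Bmpr1a (right) on the vertical axes against Bmp7 on the horizontal axes; 20 mice, coloured by group. Bmp4 falls as Bmp7 increases (r = -0.83) and Bmpr1a increases with it (0.75), and control replicate 2 is the point at the far left of both panels.

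By the measure of Pearson r over the 20 libraries, among tested genes with a mean of at least 1 TPM, the genes nearest to Bmp2 were Nr4a1 (0.80), Atf3 (0.76) and Btg2 (0.76). Mylip (0.97), Ghr (0.97) and Hpcal1 (0.96) were nearest to Bmp4, and Slk (0.95), Sh3pxd2b (0.95) and Synpo (0.95) to Bmp7. Bmpr1a had Prrx2 (0.93), Ubxn4 (0.91) and Map1b (0.91), Bmpr1b had Rpl21 (0.88), Trappc6a (0.86) and Pctp (0.85), and Bmpr2 had Usp9x (0.95), Smurf2 (0.94) and Trip12 (0.94). Nog had Abcb1b (0.85), Acsl1 (0.83) and Aspg (0.83), and Id1 had Dusp2 (0.85), Gja5 (0.84) and Mir22hg (0.83). With group means subtracted the leading values were 0.73 for Nr4a1, 0.97 for Mylip, 0.90 for Slk, 0.87 for Prrx2, 0.90 for Rpl21, 0.85 for Usp9x, 0.84 for Abcb1b and 0.79 for Dusp2.

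Facts of the whole tissue moved with these results. Il13ra2, a gene induced by progesterone in the uterus, went from 42.2 ± 9.99 TPM in control to 2.22 ± 0.560 in IF, 2.43 ± 0.927 in PBMC and 3.30 ± 0.913 in PBMC-hCG. The paper names Ihh and Hand2 as progesterone receptor targets. Neither passed in IF against control (log2 fold change 0.525 and -0.259, limma adjusted p = 0.569 and 0.252). Hand2 was lower than control in PBMC (-0.565, limma adjusted p = 0.0134) and PBMC-hCG (-0.521, limma adjusted p = 0.0147), and Ihh passed in neither. All 5 endothelial markers (Pecam1, Cdh5, Kdr, Tek and Emcn) were higher in each group given RU486 than in control, and their sum was 316 to 425 TPM in control, 472 to 510 in IF, 479 to 545 in PBMC and 523 to 590 in PBMC-hCG. Of the epithelial markers 4 of 7 were higher and 2 lower in IF, of the stromal markers 2 of 6 were higher, of the leukocyte markers 2 of 7 were higher, and of the myometrial markers 1 of 6 was lower. In PBMC against control, 4 epithelial markers were higher and 1 lower, 3 stromal markers and 1 leukocyte marker were higher, and 0 myometrial markers passed. In PBMC-hCG against control, where Bmp4 was called, 5 of 6 myometrial markers were lower, 4 of 7 leukocyte and 3 of 6 stromal markers were higher, and 4 epithelial markers were higher and 2 lower. Red-cell markers summed to 342 to 878 TPM in PBMC-hCG and 640.0 to 1802 TPM in IF, and between these groups 2 of 5 were called lower, Hba-a2 (-1.08, limma adjusted p = 0.0489) and Hbb-bs (-1.04, limma adjusted p = 0.0493). Summed stromal markers reached 8868 to 10520 TPM in IF and 8369 to 8936 in 4 of the controls, but 5005 in control replicate 2, which also had the lowest median correlation with its group (0.963). Myometrial markers were highest in control replicate 5, at 11100 TPM against 5900 to 8784 in the other controls. Markers of ovary and oviduct summed to 22.6 to 30.4 TPM in control, 13.1 to 28.2 in IF, 9.48 to 16.8 in PBMC and 8.96 to 18.99 in PBMC-hCG, with every PBMC and PBMC-hCG library below every control. Of these markers Ovgp1 was called lower than control in all 3 groups (-0.93 in IF, -1.69 in PBMC and -1.64 in PBMC-hCG). It had the highest mean of the list, 11.9 TPM over all libraries. Star, next at 4.84 TPM, leaned the other way (0.55 in IF, 0.66 in PBMC and 0.13 in PBMC-hCG). Star, Cyp11a1 and Amh were not called against control in any of the 3 groups. The part of these shifts in the members' results was not tested. Without control replicates 2 and 5, a setting chosen after seeing the data, IF against control called Bmp2 (0.97), Bmp4 (0.70), Bmp7 (0.64) and Bmpr2 (0.35), all higher, with limma adjusted p of 0.0153, 0.0182, 0.0411 and 0.00541, while Bmpr1a (0.15) and Bmpr1b (-0.56) no longer passed (0.161 and 0.14). In that setting Bmpr1a was also lost in PBMC against control (0.21, limma adjusted p = 0.0501), and 26 pathway genes passed in IF, 18 of them higher.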

How the data were processed

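Total RNA of 1 horn per mouse was made into stranded polyadenylated-RNA libraries (20, 5 per group). The authors trimmed reads with Trimmomatic, mapped them to mm10 with HISAT2 and assembled transcripts with StringTie; versions are not given in the sources used here. The deposited table holds TPM for 45777 genes, each library summing to 999989 to 999999, with 22702 to 24097 genes above 0; TPM keep no read depth, so the counting error of low genes such as Grem1 and Bmpr1b is unknown. Groups and replicate numbers were taken from the sample labels. Each replicate is 1 mouse, and no batch is named.

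The 18706 genes with no library at 0 entered limma 3.58.1 in R 4.3.3 as log2(TPM + 0.1) (variance trend, all 4 groups in the fit, no replicate block), with Benjamini-Hochberg adjustment per comparison and a threshold of 0.05. The script was tested on simulated data. The study's own test used edgeR on read counts, which TPM do not allow. Grem1 was compared by two-sided exact permutation tests (252 arrangements, smallest p 0.00794, scipy 1.17.1), which were also run for each of the other members. The genes named were the 9 members, of the other pathway genes called in IF against control or PBMC-hCG against IF the 4 of largest fold change in each direction, and for likeness the 3 nearest genes of each tested member. A listed pathway gene is not reported here. Members and lists were chosen with earlier results of these data known. Alternatives were other pseudocounts (1 and 0.01), filters, scalings, no variance trend, a replicate block, only the groups compared, the study's criteria, and each library left out. Positions and promoters came from RefSeq (GRCm38.p6), where 5 of the 9 members had a promoter.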

Additional observations from a re-analysis of the deposited data

Results flagged for a closer look

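Of 72 sets of 5 libraries (the members and the named pathway genes in each group), 9 held 1 library whose gap to its nearest neighbour was over 0.71 of the range on the log2(TPM + 0.1) scale, where chance gives about 1 in 20. Of the 36 sets of the members, 5 did. The sets are not independent, since they reuse the 20 libraries and many of the genes vary together. These counts are therefore not a test. Control replicate 2 was the library apart for Nog (45.4 TPM, next 12.2), Bmpr1b (2.50, next 1.01), Bmpr1a (33.9, next 42.5) and Gdf6 (0.0556, next 0.119). PBMC-hCG replicate 1 was apart for Bmp7 (36.3 TPM, next 28.2) and Eng (225, next 149). PBMC replicate 1 was apart for Nog (6.67 TPM, next 9.90). Bmp3 was low in PBMC replicate 5 (2.06 TPM, next 2.78), and Chrd was low in IF replicate 4 (11.1 TPM, next 13.9). On the TPM themselves, 11 sets and 6 of the members' sets held such a gap, now with Bmp2 in control replicate 5 (13.8 TPM, 0.809 of the range), Bmp4 in control replicate 2 (23.1 TPM, 0.767) and Bmper in PBMC-hCG replicate 1 (3.88 TPM, 0.736), and without Nog in PBMC replicate 1.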

How the results depend on the processing

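TPM keep no read depth, so counting error could not be set beside the low genes. Of the recomputed fold changes, 974 kept direction and side of the threshold, 22 newly passed, 24 no longer passed and 36 changed sign, none of these a called value. These counts include the exact permutation test of each single gene, which was counted as passing at an unadjusted p under 0.05. Causes were not tested. Member calls in IF against control went from 4 to 2 without the filter on zeros, 2 with only the groups compared in the fit, and 0 under the study's criteria, and ran from 2 to 4 with 1 library left out (2 without IF replicate 2, 4 or 5). The study's criteria also left 0 members in PBMC and 0 in PBMC-hCG against control, where leaving out 1 library gave 3 to 4 and 2 to 3. PBMC-hCG against IF had 1 member call with only its groups in the fit and 0 to 2 with 1 library left out. Pathway calls under the study's criteria were 7 in IF, 4 in PBMC and 4 in PBMC-hCG against control, 2 in PBMC-hCG against IF and 1 in PBMC-hCG against PBMC. With 1 library left out they ran from 19 to 25, 16 to 22 and 18 to 21 against control. In PBMC-hCG against IF they ran from 0 to 13 (leaving out IF replicate 2, 4 or 5 or PBMC-hCG replicate 2, 3 or 5 gave 0, PBMC-hCG replicate 4 gave 1, PBMC-hCG replicate 1 gave 7 and IF replicate 3 gave 13), with 2 under no filter and 7 with only these groups.

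Signs changed for uncalled values near 0. These were Bmp7 in PBMC against IF (0.002 after quantile normalization), Bmpr2 in PBMC-hCG against PBMC (-0.002 after the median shift), Id1 in PBMC-hCG against control (-0.007 after the median shift and -0.129 without control replicates 2 and 5) and Bmpr1b in PBMC-hCG against control (0.082 without those controls). With 1 library left out, ranges crossing 0 were -0.143 to 0.123 for Bmp2 and -0.013 to 0.186 for Nog in PBMC-hCG against IF, -0.087 to 0.147 for Bmp4 and -0.165 to 0.13 for Bmp7 in PBMC against IF, -0.03 to 0.063 for Bmpr2, -0.227 to 0.001 for Nog and -0.197 to 0.311 for Grem1 in PBMC-hCG against PBMC, -0.095 to 0.509 for Grem1 in PBMC against control, and -0.379 to 0.023 for Bmpr1b, -0.01 to 0.594 for Grem1 and -0.12 to 0.271 for Id1 in PBMC-hCG against control.

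Calls of Bmpr1a in IF were also lost after the median shift (0.20, limma adjusted p = 0.0893), quantile normalization (0.16, 0.106), no filter (0.0635), no variance trend (0.0589) and only its groups in the fit (0.0795), and in PBMC with only its groups (0.0705). Bmpr1b in IF was lost with no filter (0.0609) and with only its groups (0.0858).

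The samples share only a replicate number. With the replicate number as a block, Bmp4 passed in IF (0.54, limma adjusted p = 0.038) and PBMC (0.52, limma adjusted p = 0.0478) against control, giving 5 and 4 member calls. The block left 22 pathway calls in IF against control, 18 in PBMC, 18 in PBMC-hCG, 6 in PBMC-hCG against IF and 0 in the other comparisons. Deviations of same-numbered libraries correlated at -0.247 to 0.396 in IF and control, and 2 of those 10 libraries were closest to their own number.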

Other observations

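The ligand Bmp8a, the ligands Bmp5 and Bmp6 and the target Id3 are given here after their values were seen. Bmp8a was listed at 0 in 2 libraries and was not tested. It was at 0.729 to 2.55 TPM in the 5 IF mice and at 0 to 0.361 TPM in the 5 controls, without overlap. Such a separation in this direction was seen in 8.55% of tested genes. PBMC mice had 0.0975 to 1.96 TPM and PBMC-hCG mice 0 to 1.10 TPM, both overlapping with the other groups.

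Bmp6 and Bmp5 gave no call in any comparison. Bmp6 was at 3.85 ± 0.390 TPM (SD, n = 5) in control, 3.48 ± 0.465 in IF, 4.47 ± 1.17 in PBMC and 3.99 ± 0.555 in PBMC-hCG. Bmp5 was at 0.194 ± 0.0738 TPM in control, 0.195 ± 0.101 in IF, 0.211 ± 0.0517 in PBMC and 0.326 ± 0.126 in PBMC-hCG. Id3, a target of the same family as Id1, rose from 168 ± 37.3 TPM in control to 259 ± 35.9 TPM in IF (log2 fold change 0.64 ± 0.14, limma adjusted p = 0.00271) and 280 ± 37.5 TPM in PBMC (0.76 ± 0.14, limma adjusted p = 0.000799), both without overlap. Of all tested genes 8.55% in IF and 8.65% in PBMC lay wholly above control, and 13.4% and 12.8% passed as higher. In PBMC-hCG Id3 was at 238 ± 30.3 TPM (0.52 ± 0.14, limma adjusted p = 0.00839), where 20.2% of tested genes passed as higher. Id1 passed in none of these comparisons, and whether the genes differ in response was not tested.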
